A study of Homo sapiens with 16 samples.

Results

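The nuclear-encoded subunits of respiratory chain complexes I to IV were examined in human myeloma cell lines. Genes were taken by symbol from the deposited expression table: NDUFA, NDUFB, NDUFC, NDUFS and NDUFV genes with a number for complex I, SDHA to SDHD for complex II, 8 UQCR genes for complex III and 10 ubiquitously expressed COX genes for complex IV. FPKM is the number of fragments scaled to exon length and to the reads of the library, and a mean of 1 FPKM or more over 16 libraries was also required. Of 23459 rows 59 matched, and all 59 met the level rule: 37 in complex I, 4 in complex II, 8 in complex III and 10 in complex IV. NDUFA4 is counted with complex I by its name, although its product is now assigned to complex IV. CYC1, the cytochrome c1 subunit of complex III, is outside the symbol rule, and the subunits encoded in the mitochondrial genome are not analysed here.

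RNA sequencing was done on the multiple myeloma lines MM.1s, RPMI8226 and KMS18 and on RPMI8226 overexpressing Mcl1, an anti-apoptotic protein of the BCL2 family. Each of these 4 backgrounds received an empty pLK0.1 vector (Vec) or one of 3 short hairpin RNAs (shRNA). Their targets were Gapdh as a control, the receptor CD28 and its ligand CD86. There was 1 library for each of the 16 combinations, no background was left without a vector, and MM.1s, RPMI8226 and KMS18 carried no overexpressed gene. The Mcl1 line is 1 derived line, and the labels do not say whether libraries came from separate cultures, so the spread that p-values rest on is that of these libraries and lines, and may be technical. The study's title names a survival signal from CD86, and the design asks how transcripts respond to loss of the receptor and of the ligand.

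In a respiring cell, complex I passes electrons from NADH, and complex II from succinate, to ubiquinone. Complex III hands them to cytochrome c and complex IV to oxygen, and complexes I, III and IV pump protons that drive ATP synthase. Complex I is built from a small set of catalytic core subunits and many accessory subunits that stabilise it. Plasma cells and myeloma cells make and secrete large amounts of immunoglobulin, which is an ATP-consuming task.

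Reads in genes numbered 3914513 to 5900955 per library, and in all 4 backgrounds the CD28 shRNA library had the fewest. CD28 stood at 71.7% ± 7.14 of Vec under its own shRNA (SD, n = 3 lines), CD86 at 54.9% ± 18.5 and GAPDH at 32.7% ± 21.2, and of these only CD28 passed the test (log2 difference -0.47, SE 0.096, limma adjusted p = 0.0295). Between the libraries with CD86 and CD28 shRNA, CD86 differed by -1.33 (limma adjusted p = 0.00943). Against Vec its estimates were -0.62 with CD86 shRNA and 0.71 with CD28 shRNA, neither past the threshold (limma adjusted p = 0.315 and 0.142). MCL1 was 1.43 higher on the log2 scale in the Mcl1 line than in RPMI8226 (SE 0.085, limma adjusted p = 4e-05). The plasma cell markers summed to between 1348 and 3794 FPKM per library. Of 5 T cell markers CD3D was at 0 in all libraries, and the list summed to at most 7.75 FPKM. Stromal markers summed to at most 0.841 FPKM, and DCN and LUM were at 0 throughout. Myeloid markers summed to 0.612 to 0.885 FPKM in KMS18 and to at most 88.9 FPKM in the Mcl1 line, with FCGR3A at 0 throughout.

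The subunit transcripts were abundant. Their mean levels over the 16 libraries ran from 7.01 FPKM for NDUFA10 to 790 FPKM for COX7C, with a median of 82.8 FPKM against 9.41 FPKM over the 11349 genes that reached 1 FPKM in the mean, and 58 of 59 were above that median. Each subunit was read 73 to 3792 times per library, so that none was near the detection limit. Complex IV transcripts had the highest median, at 253 FPKM against 72.8 in complex I, 72.5 in complex II and 72.0 in complex III.

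Members of one complex differed widely from each other. In complex I the highest was NDUFV2, an iron-sulfur subunit of the NADH-oxidising module, at 373 FPKM, and the lowest NDUFA10, an accessory subunit of the membrane arm. In complex III they were UQCRH, the hinge subunit that contacts cytochrome c1, at 528 FPKM, and UQCRB, the ubiquinone-binding protein, at 32.6 FPKM. In complex IV COX4I1, the common form of subunit 4, was lowest at 99.1 FPKM. Complex II was the most even: SDHB, the iron-sulfur subunit, averaged 76.7 FPKM, and SDHC, a membrane anchor, 36.3 FPKM. FPKM is divided by exon length, and NDUFA10, UQCRB and COX4I1 had the longest of their complexes, at 8371, 5223 and 2325 bases. In complex II the longest was SDHA (3361 bases), which was not the lowest. The part of exon length in the levels within and between complexes was not tested.

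**Figure D1:**
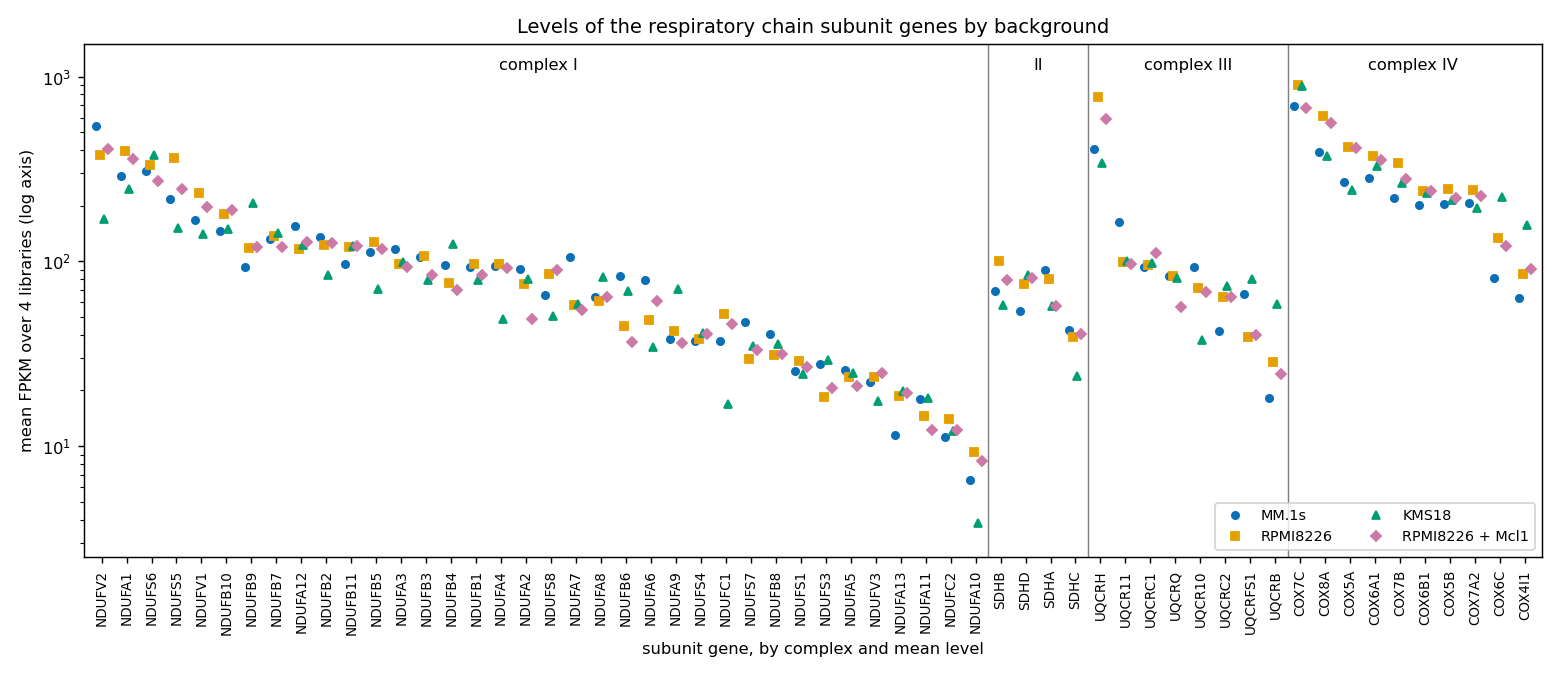
Mean FPKM of 58 of the 59 subunit genes over the 4 libraries of each background, on a log axis, ordered by complex and level; symbols mark the background. Complex IV has the highest median level and the highest gene, COX7C at 790 FPKM over all libraries. The spread between backgrounds is largest for genes such as NDUFV2, NDUFC1 and UQCRB.

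The annotation limits what a count of these genes means. In GENCODE v29 (GRCh38) 24 of the 59 share exon bases with another protein-coding gene, and 33 have a pseudogene named after them, 114 pseudogenes in all and 17 of them of COX6C. How reads that match several places were counted, and whether strand was used, is not given in the sources used here. Among genes described below, NDUFB8 shares exon bases with HIF1AN, NDUFA13 with YJEFN3 and SDHC with CFAP126. NDUFA1 does so with RNF113A, NDUFB3 with FAM126B, NDUFA2 with IK and TMCO6, and UQCRQ with GDF9. These are examples and not the full list. UQCR10 shares none and has no named pseudogene.

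Many subunit promoters held 1 of 3 short motifs. The 250 bases before to 50 bases after the gene start (RefSeq, GRCh38.p14) were at hand for 51 of the 59 genes. Each was searched on both strands for a letter string of a factor known to act on respiratory genes. The NRF1 string GCATGCGC was found in 10 of 51 (19.6%) against 3.68% of the 27305 genes in the promoter table. The ETS-family string CCGGAAGT, of the kind bound by GABP (NRF2), was in 8 (15.7%) against 4.95%, and the YY1 string AAGATGGC in 9 (17.6%) against 3.52%. At least 1 of them was in 22 (43.1%) against 11.2%. None of the 3 strings holds another, no match shows binding, and the expression data do not bear on which factor acts.

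The windows below were chosen to show the NRF1 or the ETS string in at least 1 gene of every complex, and no window of the YY1 string is shown. The capitals mark the string or its reverse complement, 5′ to 3′ on the strand of the gene.
NDUFA6 (complex I, NRF1 string, chr22:42090920-42090949, minus strand): tctgtagatgaGCATGCGCagcacccaccg
NDUFS6 (complex I, NRF1 string, chr5:1801350-1801379, plus strand): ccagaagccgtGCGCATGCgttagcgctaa
NDUFS7 (complex I, NRF1 string, chr19:1383823-1383852, plus strand): ttccggtttccGCATGCGCtccgagccgct
SDHB (complex II, NRF1 string, chr1:17054214-17054243, minus strand): aagccaaatggGCATGCGCcgctactgcgc
COX5B (complex IV, NRF1 string, chr2:97645915-97645944, plus strand): ggcagagctggGCATGCGCaatttccgccc
COX5B (complex IV, ETS string, chr2:97646014-97646043, plus strand): gaagcccgcccCCGGAAGTccctcctgtct
UQCRH (complex III, ETS string, chr1:46303640-46303669, plus strand): gagtgtgccgcACTTCCGGccagatcgccg
UQCRQ (complex III, ETS string, chr5:132866577-132866606, plus strand): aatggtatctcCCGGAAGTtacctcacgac
COX8A (complex IV, ETS string, chr11:63974590-63974619, plus strand): ccagctccagaACTTCCGGccagcgcagcc
COX5B held both strings, as did SDHD, and NDUFA6, NDUFS7 and SDHB also held the YY1 string.

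CD28 shRNA was compared with Vec in MM.1s, RPMI8226 and KMS18, with the line as a block, to see how subunit transcripts stood after loss of the receptor. Of the 59 genes 2 fell and 0 rose, where 2.11% of 11316 genes fell and 0.716% rose (limma, adjusted p under 0.05). In bulk RNA, fewer cells with a transcript and less of it per cell cannot be told apart. The 2 were UQCR10 of complex III and NDUFA13 of complex I. The median difference over the 59 was -0.10 on the log2(FPKM + 1) scale and 45 were below 0, against a median of -0.00 and 50.6% below 0 over all genes. At an unadjusted p under 0.05 there were 12 (20.3%), close to the 19.8% of all genes. With only genes at a mean of 5 FPKM or more, 5.85% of them were called in either direction, beside 2 subunits.

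UQCR10, a small subunit of complex III (GRCh38 chr22:29767369-29770413, plus strand), was at 101, 77.4 and 43.4 FPKM with Vec in MM.1s, RPMI8226 and KMS18. With CD28 shRNA it was at 65.5, 56.5 and 29.4 FPKM in the same lines. The groups overlapped because the lines differ, but within each line the CD28 shRNA library was the lowest of the 4. The log2 difference was -0.54 (SE 0.086, limma adjusted p = 0.0108), a level of 68.4% ± 4.28 of Vec (SD, n = 3 lines). In the Mcl1 line, which was not in that fit, UQCR10 was at 77.0 FPKM with Vec, 70.8 with Gapdh shRNA, 43.3 with CD28 shRNA and 82.4 with CD86 shRNA.

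NDUFA13, a membrane-arm subunit of complex I also studied as the cell-death protein GRIM-19 (GRCh38 chr19:19515736-19529054, plus strand), was at 11.6, 20.9 and 20.5 FPKM with Vec and at 8.05, 14.0 and 16.5 FPKM with CD28 shRNA. Again the library with CD28 shRNA was the lowest of its line in all 3, while the groups overlapped across lines. The log2 difference was -0.44 (SE 0.099, limma adjusted p = 0.0453), or 72.4% ± 7.21 of Vec. In the Mcl1 line the values were 20.7 with Vec and 13.6 with CD28 shRNA.

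No complex II or complex IV gene passed the test. SDHC was at -0.33 on the log2 scale (limma adjusted p = 0.138), SDHB at -0.15, SDHD at -0.13 and SDHA, the flavoprotein subunit, at 0.07. In complex IV the estimates ran from -0.21 for COX6B1 to 0.07 for COX8A, and no member had an unadjusted p under 0.05. In complex I the other extreme was NDUFC1, a small accessory subunit, at 0.30 (limma adjusted p = 0.395). Medians per complex were -0.09 in I, -0.14 in II, -0.12 in III and -0.08 in IV.

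With any 1 of MM.1s, RPMI8226 and KMS18 left out 0 subunits were called, and the share of all genes called fell from 2.83% to 0.338% without MM.1s, 1.2% without RPMI8226 and 0.293% without KMS18. The estimates changed less than the calls: over all alternatives UQCR10 stayed between -0.61 and -0.48 and NDUFA13 between -0.51 and -0.39. Without the line term 0 subunits and 0% of all genes were called. With all 16 libraries in 1 fit 6 fell and 0 rose, where 9.13% of all genes were called.

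The median difference between CD28 shRNA and Vec over the 59 genes was -0.14 for MM.1s, -0.18 for RPMI8226, -0.01 for KMS18 and -0.13 for the Mcl1 line, and 45, 48, 34 and 48 genes were below 0. Each background has 1 library per shRNA, so these medians are values with no test. All genes had a median between -0.01 and 0.00 in each. In KMS18 complexes III and IV had medians of 0.02 and 0.02, whereas all 8 complex III genes were below 0 in MM.1s. Across all 4 backgrounds, 9 subunits (15.3%) had their lowest value of a background in the CD28 shRNA library every time, against 6.55% of 11349 genes. They were COX6B1, NDUFA1, NDUFA2, NDUFA11, NDUFA13, NDUFB8, SDHC, UQCR10 and UQCRH, and none had its highest value there every time. That library was also the shallowest in each background, and the part of depth in these differences was not tested.

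**Figure D2:**
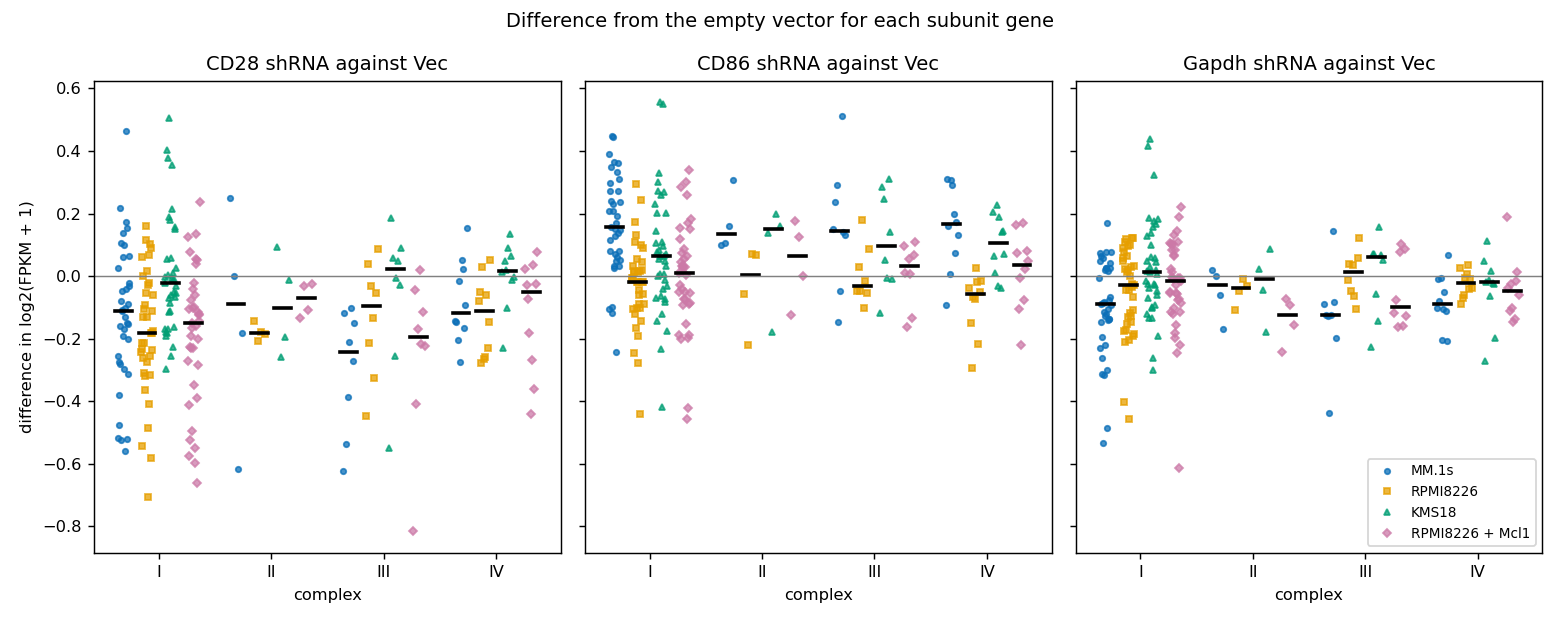
Difference from Vec in log2(FPKM + 1) for each of the 59 subunit genes (points) in each background (colours and symbols), by complex, for CD28, CD86 and Gapdh shRNA; black bars are medians. Under CD28 shRNA the medians of complexes I to IV lie below 0 in MM.1s, RPMI8226 and the Mcl1 line and near 0 for complexes I, III and IV in KMS18.

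CD86 shRNA against Vec gave 0 calls among the 59, where 0.627% of all genes were called in either direction (limma). The median difference was 0.07 with 43 genes above 0, against 0.02 over all genes, and 5 subunits (8.47%) had an unadjusted p under 0.05, against 12.8% of all genes. The smallest adjusted p belonged to NDUFB1, an accessory subunit of the membrane arm. In the same order of lines it was at 87.3, 92.4 and 60.0 FPKM with Vec and at 119, 114 and 88.6 FPKM with CD86 shRNA, higher in every line. The log2 difference was 0.43 (SE 0.12, limma adjusted p = 0.153). UQCRFS1, the Rieske iron-sulfur protein of complex III, had the largest complex III estimate at 0.27 (limma adjusted p = 0.292). In complex II SDHD was at 0.18, SDHC at 0.14, SDHA at 0.06 and SDHB at -0.10. In complex IV the estimates ran from -0.04 for COX5B to 0.17 for COX6C.

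By background, the median over the 59 was 0.16 for MM.1s, with 7 genes below 0, and -0.02 for RPMI8226, 0.07 for KMS18 and 0.02 for the Mcl1 line, with 38, 19 and 25 genes below 0. All genes had medians of 0.03, 0.01, 0.00 and 0.01 in the same order. In RPMI8226 9 of 10 complex IV genes were below 0, and in MM.1s 1 of 10.

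Gapdh shRNA, the hairpin control, gave 0 calls among the 59 and 0% of all genes in limma. The median over the 59 was -0.05 and 0 subunits had an unadjusted p under 0.05, compared with 402 of 11316 genes. Below 0 were 43 of the 59 (72.9%), against 53.0% of all genes, a count near the 45 below 0 with CD28 shRNA. The estimates ran from -0.24 for NDUFB6 to 0.11 for NDUFB1, and the 4 complex II genes from -0.08 for SDHC to -0.02 for SDHA. In complexes III and IV the lowest were UQCRC1 at -0.15 and COX5A at -0.12, and the highest UQCRFS1 at 0.06 and COX6A1 at 0.02.

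The receptor and ligand knockdowns were then compared with each other. With CD86 shRNA 9 subunits were higher than with CD28 shRNA and 0 were lower, where 5.41% of all genes were higher and 4.1% lower (limma, adjusted p under 0.05). Complex I gave 6 of them, complex II 1, complex III 2 and complex IV 0. The median over the 59 was 0.17 with 50 above 0, against 0.03 over all genes, and 29 (49.2%) had an unadjusted p under 0.05, against 26.7% of all genes. The share of all genes called depended on the fit. With only genes at a mean of 5 FPKM or more it was 15% in either direction, beside 12 subunits. With limma's voom on recovered reads it was 14.2%, beside 6 subunits.

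In complex III, UQCR10 in the order MM.1s, RPMI8226, KMS18 was at 65.5, 56.5 and 29.4 FPKM with CD28 shRNA and at 113, 74.9 and 40.0 FPKM with CD86 shRNA (log2 difference 0.53, SE 0.086, limma adjusted p = 0.00553). UQCRFS1 was at 55.5, 33.2 and 75.2 FPKM and at 85.5, 41.5 and 90.3 FPKM (0.40, limma adjusted p = 0.0334). Both were higher with CD86 shRNA in every line, and the groups overlapped across lines.

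In complex I, NDUFB8, an accessory subunit of the membrane arm often used as a protein marker of assembled complex I, was at 28.3, 21.1 and 30.8 FPKM with CD28 shRNA and at 47.6, 33.5 and 45.6 FPKM with CD86 shRNA. This was the gene among the 9 whose groups did not overlap. The log2 difference was 0.64 (SE 0.13, limma adjusted p = 0.0135), and the Mcl1 line had 22.7 and 41.7 FPKM. NDUFA13 went from 8.05, 14.0 and 16.5 FPKM to 14.2, 20.8 and 21.6 FPKM (0.55, limma adjusted p = 0.00865).

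NDUFB3, NDUFA1 and NDUFA8 are accessory subunits, and NDUFS4 is an accessory subunit at the NADH-oxidising end whose loss impairs complex I. NDUFB3 was at 90.5, 102 and 73.4 FPKM with CD28 shRNA and at 134, 113 and 93.6 FPKM with CD86 shRNA (0.35, limma adjusted p = 0.0291). NDUFA1 was at 244, 342 and 235 FPKM against 337, 403 and 279 FPKM (0.32, limma adjusted p = 0.0348). NDUFA8 was at 53.9, 49.1 and 74.5 FPKM against 72.6, 69.7 and 87.0 FPKM (0.38, limma adjusted p = 0.0466). These 3 genes were higher with CD86 shRNA in each line. NDUFS4 was at 27.2, 25.3 and 39.3 FPKM against 43.6, 45.6 and 38.6 FPKM (0.49, limma adjusted p = 0.0481), so that it was higher in MM.1s and RPMI8226 but not in KMS18.

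In complex II, SDHC was at 29.4, 34.8 and 21.3 FPKM with CD28 shRNA and at 51.1, 41.5 and 28.2 FPKM with CD86 shRNA (0.47, SE 0.11, limma adjusted p = 0.0274). Its partner anchor SDHD had an estimate of 0.30 (limma adjusted p = 0.0552), SDHB of 0.06 and SDHA of -0.01. The membrane anchors thus had larger estimates than the catalytic subunits, and the difference between them was not tested. In complex IV the largest estimate was 0.28 for COX6B1 and the lowest -0.00 for COX8A. NDUFC1 was the subunit with the lowest estimate, at -0.44 (limma adjusted p = 0.142).

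The share of each arm differed among the 9. Beside each other, the estimates against Vec for CD28 shRNA and for CD86 shRNA were -0.54 and -0.00 for UQCR10, -0.44 and 0.11 for NDUFA13, and -0.42 and 0.22 for NDUFB8. They were -0.33 and 0.14 for SDHC, -0.35 and 0.03 for NDUFA8, and -0.38 and 0.10 for NDUFS4. For NDUFB3 they were -0.14 and 0.21, for NDUFA1 -0.17 and 0.14, and for UQCRFS1 -0.13 and 0.27. All 3 comparisons share libraries, and none of these 9 genes passed the test under CD86 shRNA against Vec. Under CD28 shRNA against Vec only UQCR10 and NDUFA13 of them passed.

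Fits without MM.1s called 0 subunits, and those without RPMI8226 or KMS18 called 2 each. Over all genes the share called fell likewise, from 9.51% to 1.52% without MM.1s, 4.79% without RPMI8226 and 1.22% without KMS18. Without the line term 0 subunits and 0% of all genes were called, and with all 16 libraries 21 were higher and 1 lower, with 18.7% of all genes called in either direction.

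**Figure D3:**
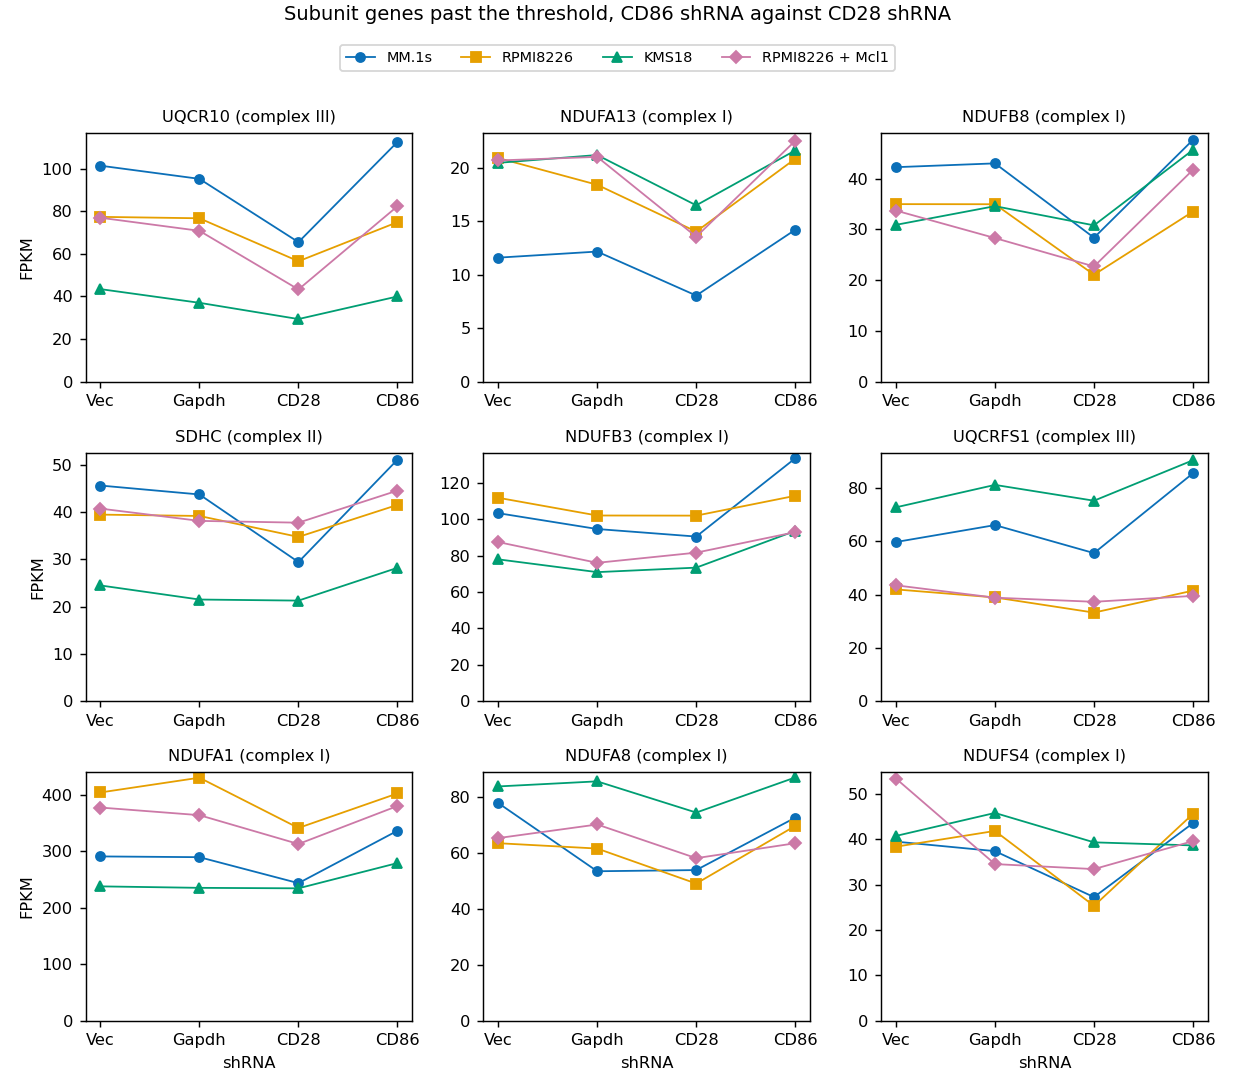
FPKM of the 9 subunit genes that were higher with CD86 shRNA than with CD28 shRNA, in each of the 16 libraries; each line joins the 4 libraries of a background, and the vertical axes start at 0. UQCR10, NDUFA13, NDUFB8, SDHC and NDUFA1 are lowest with CD28 shRNA in all 4 backgrounds, and NDUFS4 is not higher with CD86 shRNA in KMS18.

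The Mcl1 line was set against the other lines by an interaction term for each shRNA over all 16 libraries. No subunit differed in its response to CD28, CD86 or Gapdh shRNA (limma, 0 called in each), where 0.00881%, 0% and 0% of 11349 genes did. At an unadjusted p under 0.05 there were 0, 0 and 1 subunits. The estimates for CD28 shRNA ran from -0.32 for NDUFA9 to 0.28 for NDUFV3, with a median standard error of 0.19, so that the interaction was estimated loosely with 1 library per shRNA in that line.

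The authors' deposited table holds its own comparisons, in which all 59 subunits have a value. For CD28 shRNA against Vec the authors' deposited table calls 0 higher and 2 lower (false discovery rate below 0.05), UQCR10 (-0.54) and NDUFA13 (-0.45), where 2.68% of its 14975 genes are higher and 2.7% lower. For CD86 shRNA against Vec the authors' deposited table calls 0 subunits, where 0.487% of genes are higher and 1.55% lower. For CD86 shRNA against CD28 shRNA the authors' deposited table calls 4 higher and 1 lower, where 4.41% are higher and 5.9% lower. In the authors' deposited table the 4 are UQCR10 (0.52), NDUFA13 (0.55), SDHC (0.45) and NDUFB8 (0.62), and the other is NDUFC1 (-0.49). In FPKM, NDUFC1 was at 49.9, 57.1 and 19.5 with CD28 shRNA and at 37.1, 39.8 and 14.5 with CD86 shRNA, lower in each line, without passing the limma test.

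Genes that serve the same pathway were counted in the same fits. Cytochrome c, the carrier between complexes III and IV, is encoded by CYCS, which was at 63.4, 42.0 and 80.8 FPKM with Vec, at 40.9, 34.1 and 66.1 FPKM with CD28 shRNA and at 59.4, 47.1 and 74.9 FPKM with CD86 shRNA. It fell under CD28 shRNA (log2 difference -0.40, limma adjusted p = 0.0461) and was higher with CD86 than with CD28 shRNA (0.39, limma adjusted p = 0.0273). Of 11 genes for cytochrome c and ubiquinone synthesis 2 fell under CD28 shRNA, the other being ADCK3 (-0.90), a kinase-like protein needed for ubiquinone, and 0 rose, beside 2.11% of all genes that fell. With CD86 against CD28 shRNA 4 of the 11 were higher, CYCS, ADCK3 (0.68), COQ5 (0.55) and 1 other, and COQ2 was lower (-0.46), beside 5.41% of all genes higher and 4.1% lower.

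Of 18 ATP synthase genes 0 were called under CD28 or CD86 shRNA against Vec, with medians of -0.12 and 0.07. With CD86 against CD28 shRNA 4 were higher and 0 lower, namely ATP5G3 (0.42), ATP5B (0.30), ATP5F1 (0.29) and ATP5L (0.27). Over all genes 5.41% were higher and 4.1% lower in that comparison. Of 15 complex I assembly factors 1 was higher there, TMEM126B (0.49). Of 22 complex IV assembly genes 3 were higher, COX11 (0.47), COX20 (0.45) and COA6 (0.43), and 1 lower, COX18 (-0.71). Of 4 complex II assembly factors and 7 further complex III subunit and assembly genes 0 were called in any of the shRNA comparisons, CYC1 included.

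Of 76 mitochondrial ribosomal protein genes 3 fell and 0 rose under CD28 shRNA, with a median of -0.15, beside 2.11% of all genes that fell. With CD86 shRNA against Vec 1 of them was called, MRPS27, which fell (-0.64, limma adjusted p = 0.0452). With CD86 against CD28 shRNA 8 were higher and 2 lower, beside 5.41% and 4.1% of all genes. Of 13 regulators of respiratory genes 1 passed in the shRNA comparisons. This was NRF1, higher with CD86 than with CD28 shRNA (0.57, limma adjusted p = 0.0102), where 9.51% of all genes were called in either direction. All of these lists were under 0 in their median with CD28 shRNA except the complex IV assembly genes at 0.01. Gapdh shRNA gave 0 calls in each list. Its medians were under 0 as well, except for cytochrome c and ubiquinone (0.01) and the further complex III genes (0.05). For the complex I assembly factors the median was -0.09 with Gapdh shRNA and -0.08 with CD28 shRNA.

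More subunits, and more of all genes, differed between the lines than between hairpins. The highest of MM.1s, RPMI8226 and KMS18 exceeded the lowest by a median of 1.60 times in mean FPKM, and by more than 1.5 times for 35 of the 59. In KMS18 against MM.1s 17 subunits were higher and 25 lower, where 30.8% of all genes were higher and 34.5% lower (limma). In KMS18 against RPMI8226 13 were higher and 26 lower, against 35.2% and 35.1% of all genes. In RPMI8226 against MM.1s 26 were higher and 15 lower, against 33.2% and 35.9%. In either direction and in the same order, 42, 39 and 41 of the 59 were called, beside 65.3%, 70.3% and 69.1% of all genes.

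Complex I genes moved in both directions. NDUFV2 was at 507, 535, 530 and 597 FPKM with Vec, Gapdh, CD28 and CD86 shRNA in MM.1s, at 391, 343, 346 and 416 FPKM in RPMI8226, and at 175, 153, 178 and 171 FPKM in KMS18. The 3 lines did not overlap. KMS18 was lower than MM.1s by a log2 difference of -1.67 (SE 0.068, limma adjusted p = 4.35e-09) and lower than RPMI8226 by -1.14. NDUFC1 was lowest in KMS18 as well, at 14.5 to 19.5 FPKM against 39.8 to 57.1 FPKM in RPMI8226 (-1.55, limma adjusted p = 3.86e-06). NDUFA10 had 3.83 ± 0.193 FPKM (SD, n = 4 libraries) in KMS18, 6.53 ± 0.345 in MM.1s and 9.30 ± 0.252 in RPMI8226.

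The direction differed among other complex I genes. NDUFB9, an accessory subunit of the membrane arm, averaged 207 ± 13.5 FPKM (SD, n = 4 libraries) in KMS18 and 92.6 ± 8.88 in MM.1s (log2 difference 1.15). In RPMI8226 against MM.1s the largest changes in complex I were those of the accessory subunits NDUFB6 (-0.89) and NDUFA7 (-0.85), both lower in RPMI8226. In KMS18 against RPMI8226 NDUFS5 was lower by -1.25. Of 7 core subunits outside the membrane 5 were lower in KMS18 than in MM.1s and 0 higher, beside 34.5% and 30.8% of all genes. Against RPMI8226 4 were lower in KMS18 and 2 higher, beside 35.1% and 35.2% of all genes.

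Complex II was lowest in KMS18 except for SDHD. In MM.1s, RPMI8226 and KMS18 SDHA averaged 89.4 ± 7.27, 79.9 ± 3.54 and 57.2 ± 2.57 FPKM (SD, n = 4 libraries). SDHB averaged 69.3 ± 2.62, 101 ± 7.89 and 57.8 ± 4.83, and SDHC 42.5 ± 9.24, 38.7 ± 2.85 and 23.9 ± 3.24. SDHD went the other way, at 54.2 ± 9.12, 75.8 ± 5.55 and 84.4 ± 4.78 FPKM. All 4 differed between KMS18 and MM.1s, with log2 differences of -0.63 for SDHA, -0.26 for SDHB, -0.79 for SDHC and 0.64 for SDHD. Subunits that are joined in equal number in the complex thus stood in different transcript ratios in each line.

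In complex III UQCRB had a line difference about as wide as that of NDUFV2. It was at 19.1, 17.4, 12.9 and 23.6 FPKM in MM.1s, at 30.3, 29.3, 25.9 and 29.2 FPKM in RPMI8226 and at 55.0, 57.8, 57.3 and 65.5 FPKM in KMS18, with no overlap between lines. The fold between the mean of KMS18 and that of MM.1s was 3.23 (log2 difference 1.67, SE 0.11, limma adjusted p = 1.95e-07). UQCRH had another order, at 322 to 362 FPKM in KMS18, 348 to 463 in MM.1s and 751 to 813 in RPMI8226. UQCRQ was the most even gene, with a fold of 1.02 between its highest and lowest line and limma adjusted p = 0.788 between KMS18 and MM.1s.

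All 10 complex IV genes were higher in RPMI8226 than in MM.1s, by log2 differences of 0.23 to 0.70, and the mean of log2(FPKM + 1) over the 10 was 7.74 ± 0.11 in MM.1s, 8.20 ± 0.06 in RPMI8226 and 8.10 ± 0.06 in KMS18 (SD, n = 4 libraries). COX4I1 was at 67.5, 62.8, 61.1 and 63.2 FPKM in MM.1s, at 87.1, 88.8, 82.5 and 84.8 FPKM in RPMI8226 and at 149, 154, 150 and 172 FPKM in KMS18. The lines did not overlap, and KMS18 exceeded MM.1s by 1.28 on the log2 scale (SE 0.064, limma adjusted p = 2.26e-08). COX6C had the same order of lines, with 72.3 to 95.4, 115 to 141 and 205 to 244 FPKM. The other 8 genes had their highest mean in RPMI8226, and COX5A was lower in KMS18 than there (log2 difference, KMS18 minus RPMI8226, -0.77).

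**Figure D4:**
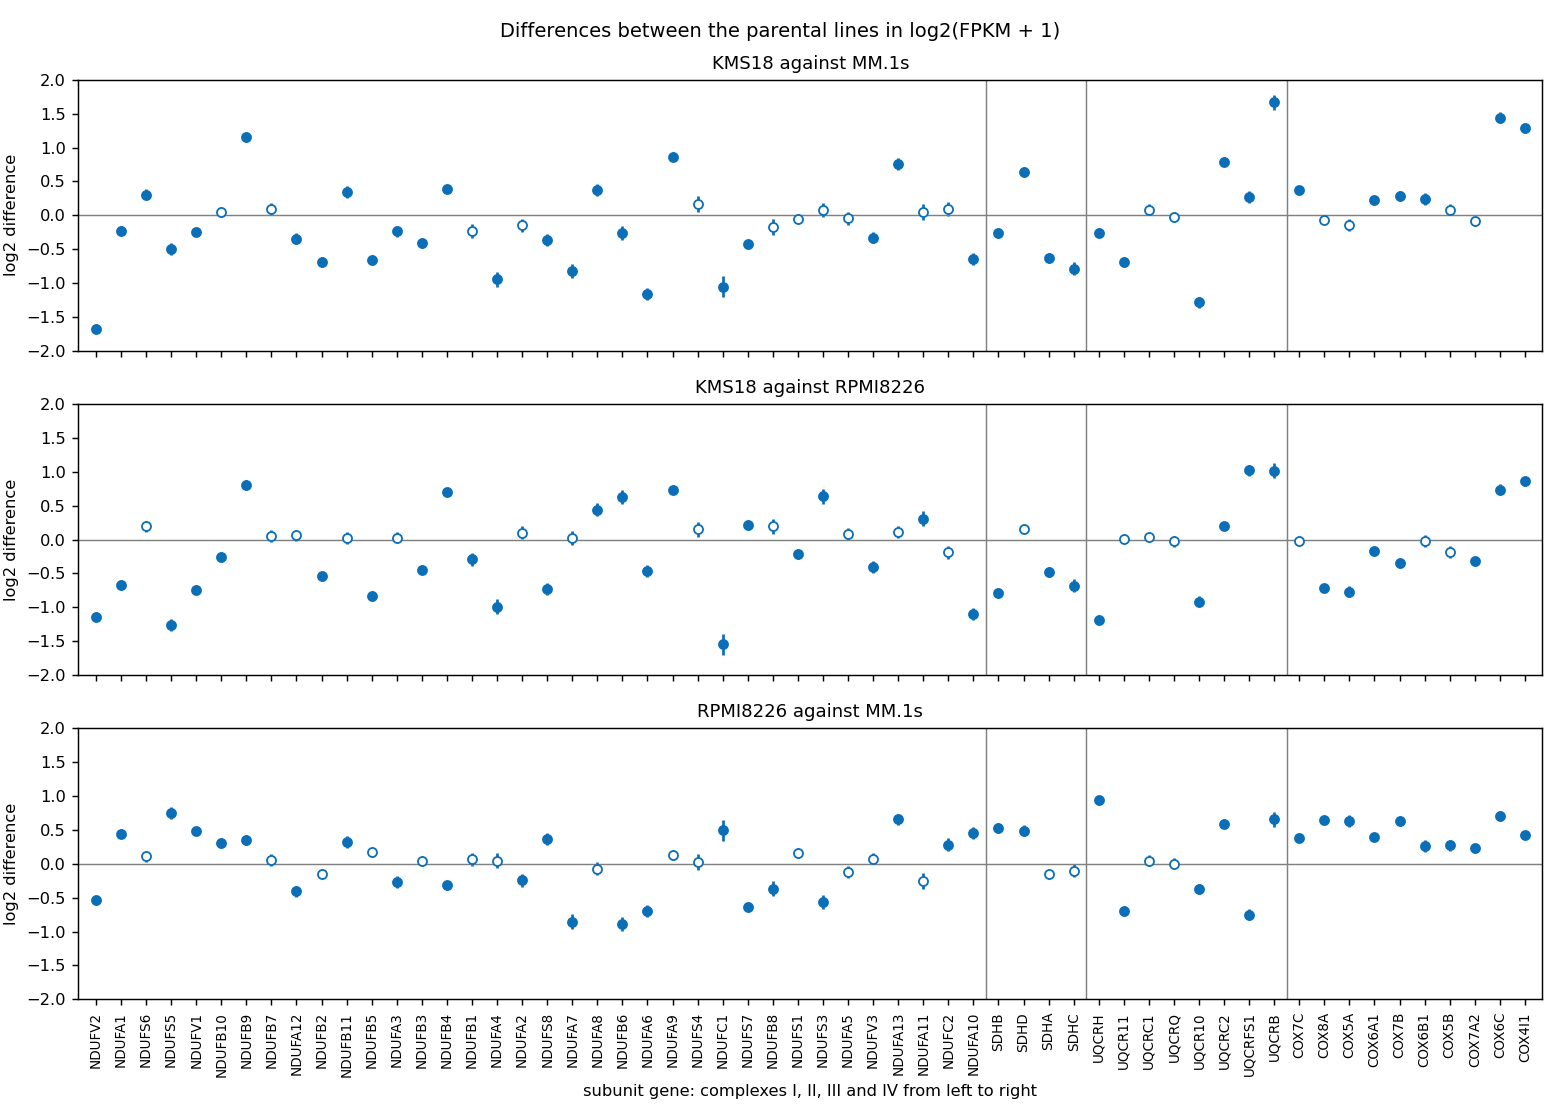
Difference between parental lines in log2(FPKM + 1) for 58 of the 59 subunit genes, with the standard error; filled points passed the limma threshold and vertical lines part complexes I, II, III and IV. All 10 complex IV genes are above 0 in RPMI8226 against MM.1s, while complex I genes lie on both sides in each comparison.

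The chromosome on which a gene lies was tabulated beside the line differences, since myeloma lines carry gains and losses of chromosomes. Chromosomes were taken from the promoter table, which has 51 of the 59 genes, and the others were not analysed here. Chromosome 8, on which NDUFB9, UQCRB and COX6C lie in GENCODE v29, and chromosome Y were not among the chromosomes compared. UQCR10 and NDUFA6, both on chromosome 22, were lower in KMS18 than in MM.1s by -1.29 and -1.16. The other 194 tested genes of that chromosome had a median of -0.79 and 85.1% of them were lower, the lowest median of the 22 chromosomes compared. On chromosome 16 UQCRC2, COX4I1 and NDUFB10 were all higher in RPMI8226 than in MM.1s, with a median of 0.43, and the other genes there had the highest median, 0.26. Other subunits went against their chromosome: NDUFC1 on chromosome 4 was lower in KMS18 than in RPMI8226 by -1.55, while the other 341 genes there had a median of 0.41. NDUFV2 on chromosome 18 was lower in KMS18 than in MM.1s by -1.67, while the other 137 genes had a median of 0.06. Copy number was not measured, and its part in these differences was not tested.

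The Mcl1 line was compared with its parent RPMI8226 in 8 libraries, with the shRNA as a block. Of the 59 subunits 20 were lower and 3 higher, where 14.9% of 11024 genes were lower and 19.5% higher (limma). The median was -0.09 over the subunits and 0.03 over all genes. The 3 higher were NDUFA6 (0.35), UQCRC1 (0.21), a core protein of complex III, and NDUFV2 (0.12).

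The 3 largest decreases were those of NDUFA2, NDUFS5 and UQCRQ. NDUFA2, an accessory subunit of the matrix arm, was at 77.4, 81.7, 64.4 and 78.1 FPKM in RPMI8226 with Vec, Gapdh, CD28 and CD86 shRNA and at 52.0, 55.9, 35.9 and 51.0 FPKM in the Mcl1 line. The lines did not overlap (log2 difference -0.63, SE 0.057, limma adjusted p = 0.000236). NDUFS5 was at 346, 377, 369 and 358 FPKM against 228, 260, 211 and 288 FPKM, again with no overlap (-0.56, limma adjusted p = 0.00104).

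UQCRQ, a small subunit of complex III, was at 79.1, 86.1, 84.0 and 84.0 FPKM in RPMI8226 and at 58.5, 53.5, 50.0 and 63.2 FPKM in the Mcl1 line (-0.56, limma adjusted p = 0.000769). It had been the most even gene between the parental lines. COX7C was at 934, 929, 844 and 902 FPKM against 667, 673, 656 and 704 FPKM (-0.42, limma adjusted p = 9.86e-05). SDHA was lower by -0.47 and SDHB by -0.34, while SDHC was at 0.06 and SDHD at 0.11 without passing the test.

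Of the 6 subunits on chromosome 5 the 5 genes NDUFA2, UQCRQ, SDHA, COX7C and NDUFS6 (-0.28) were lower in the Mcl1 line, and NDUFS4 was not called. Their median was -0.44. The other 424 tested genes of chromosome 5 had a median of -0.19 with 40.1% lower, the lowest of the 22 chromosomes compared, and the other 15 lower subunits lay elsewhere. With the shRNA left out of the model, 12 subunits were lower and 1 higher, and 22.3% of all genes were called, against 34.4% with it.

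**Figure D5:**
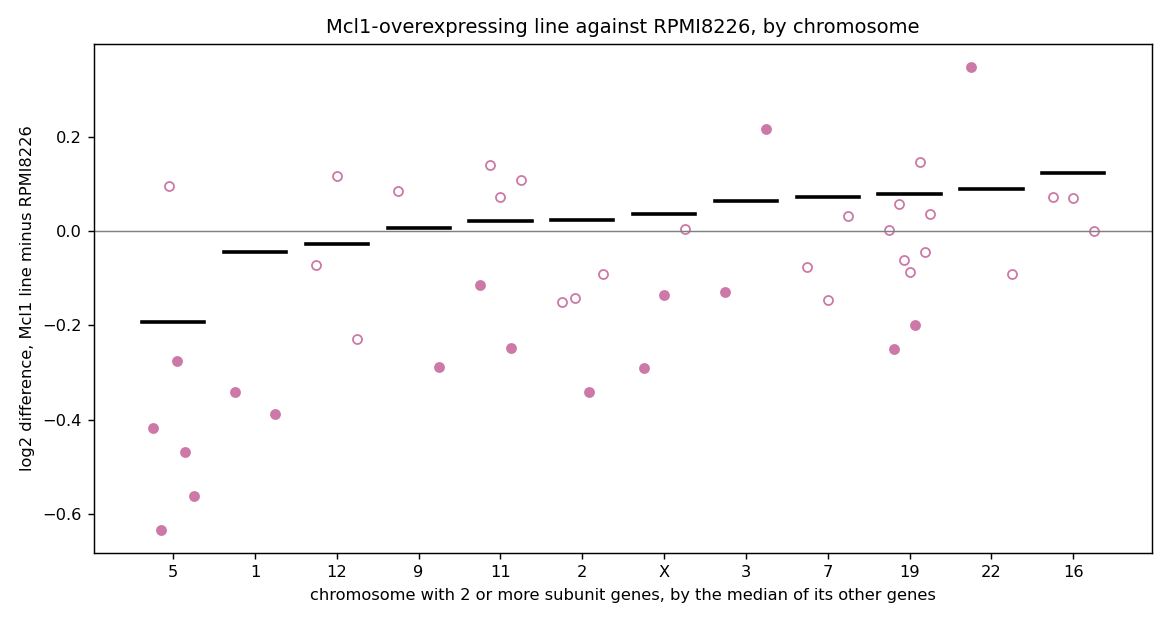
Difference between the Mcl1 line and RPMI8226 in log2(FPKM + 1) for the subunit genes (points, filled where past the limma threshold) by chromosome, for the genes with a chromosome in the promoter table and chromosomes with at least 2 of those; black bars are medians of the other tested genes of the chromosome. Chromosome 5 has the lowest bar, at -0.19, and 5 of its 6 subunit genes lie below it.

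The complexes varied together over the libraries. After the mean of each background was subtracted, the mean log2(FPKM + 1) of complex I had a Pearson r of 0.94 with that of complex III, 0.91 with complex IV and 0.82 with complex II over the 16 libraries, which share depth and scaling within each library. The deviation of complex I was lowest in the CD28 shRNA libraries of the Mcl1 line (-0.13), RPMI8226 (-0.11) and MM.1s (-0.11), was -0.02 in that of KMS18, and was highest in the CD86 shRNA library of MM.1s (0.18). Among the genes outside the rule most like the complex I mean were EIF3K (r 0.94), NDUFAF2 (0.92), C19orf53 (0.92) and PIGC (0.91), given as a description over the same 16 libraries.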

How the data were processed

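RNA was sequenced from 16 libraries, and the authors deposited a table with FPKM values per gene and their own comparisons, with log2 fold changes, p-values and false discovery rates. The submitters' processing notes name edgeR 3.12.1 under R 3.2.2, the aligner TopHat2 2.0.13 and Picard, and list mm9, hg19 and GRCh37 as builds without saying what each was used for. The strand setting is likewise unstated. The name of the authors' deposited table appears to exclude the Gapdh shRNA libraries and the Mcl1 line from its comparisons, but the libraries entering each comparison are not listed.

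Values were taken as log2(FPKM + 1), and genes that reached 1 FPKM in the mean of a fit's libraries were tested with limma 3.58.1 in R 4.3.3. A fold on this scale understates the change of low genes. Benjamini-Hochberg adjustment ran over all tested genes, with a threshold of 0.05. The shRNA and parental line comparisons used 12 libraries, without the Mcl1 line, and terms for cell line and shRNA (6 residual degrees of freedom). The Mcl1 line was compared with RPMI8226 over 8 libraries (3 degrees of freedom) and its interactions over 16 (6 degrees of freedom). The shared cell line pairs the libraries: deviations from the group means of 18 same-line pairs had correlations of 0.87 to 0.95 over 11316 genes.

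Named in each comparison were the genes past the threshold (at most 12), the highest and lowest estimate and level of each complex, the complex II genes and at most 4 called genes of each related list; between lines, the 3 largest called differences of a complex. Some further members were named after their values were seen: the extreme-library sets, NDUFA6 and UQCRQ. Some single-gene results are not reported here. The members and lists were chosen with earlier results of these data known. Reads in genes numbered 3914513 to 5900955 per library. Whole reads were recovered from the deposited FPKM and exon lengths (100% of values within 0.02 of a whole number), for the read ranges and for an alternative fit with limma's voom. The model code was tested on simulated data. Alternatives covered the pseudocount, filter, scaling (median of ratios, and a trimmed mean of M-values, TMM), blocks, libraries included and leaving out each line or shRNA. Tables and figures used Python 3.11.15, pandas 2.3.3, numpy 2.4.6 and matplotlib 3.10.9.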

Additional observations from a re-analysis of the deposited data

Results flagged for a closer look

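Within each background the 4 libraries were compared for 1 that stood apart from the other 3 by more than Dixon's 95% limit. Of 112 values tested 9 did, and chance flags about 1 in 20 groups. The values were of complex means and of part of the subunits, not of every subunit. Flagged genes such as UQCR10, NDUFB8 and NDUFA1 had also passed in the shRNA comparisons, which used the same libraries. The 9 are therefore not an independent count to set against chance, and no rate over all genes is given. No explanation was tested, and the 4 libraries of a background differ by shRNA.

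In RPMI8226 the library with CD28 shRNA stood apart on the low side for NDUFB8 (21.1 FPKM against 33.5 to 35.0 in the other 3), UQCR10 (56.5 against 74.9 to 77.4), COX6C (115 against 138 to 141) and the complex III mean of log2(FPKM + 1) (6.35 against 6.48 to 6.49). In the Mcl1 line the same shRNA stood apart on the low side for the complex I mean (5.88 against 6.03 to 6.07).

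The library with CD86 shRNA stood apart on the high side for SDHB in MM.1s (73.2 FPKM against 67.9 to 68.0), and for COX7C (966 against 859 to 874) and NDUFA1 (279 against 235 to 238) in KMS18. It stood apart on the low side for NDUFC1 in RPMI8226 (39.8 against 54.4 to 57.1).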

How the results depend on the processing

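Of 1770 values recomputed under the alternatives, 1653 kept their direction and their side of the threshold or stayed within the spread, and 12 changed sign. For CD28 shRNA against Vec the count of 2 became 1 without the filter on low values, 1 with median-of-ratios scaling, 1 with only the libraries of Vec and CD28 shRNA, 6 with all 16 libraries and 0 without the replicate block on cell line, and was 0 to 0 with each line left out. For CD86 against CD28 shRNA the count of 9 became 3 without the filter, 22 with all 16 libraries, 0 with only the libraries of both shRNAs and 0 without the replicate block, and was 0 to 2 with each line left out. The cause of these changes was not tested. For the Mcl1 line against RPMI8226 the count of 23 became 13 without the replicate block on shRNA, and the median of -0.09 became -0.13 with median-of-ratios scaling, -0.13 with TMM and -0.14 with voom. No other count of called subunits moved by over 1.5 times without a block, and voom on recovered reads called 5.28% of all genes against 2.83% for CD28 shRNA against Vec.

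UQCR10 was past the threshold in 9 of 13 alternatives for CD28 shRNA against Vec and NDUFA13 in 6 of 13. For CD86 against CD28 shRNA the 9 genes were so in 2 (NDUFA8) to 8 (UQCR10 and NDUFB8) of 12, and 0 of them changed sign. The sign changes were all of uncalled genes. Without MM.1s SDHA became -0.0255 and 0.0657 for CD28 shRNA against Vec and CD86 against CD28 shRNA, and SDHD 0.0274 for Gapdh shRNA against Vec. For CD86 against CD28 shRNA, COX8A became 0.00366 and UQCRQ -0.0501 without MM.1s, and COX8A 0.0260 without RPMI8226. Without RPMI8226 SDHA became 0.0211 for Gapdh shRNA and COX5B 0.0848 for CD86 shRNA against Vec. Without KMS18 UQCR11 became -0.0386 for CD28 shRNA, and COX6A1 -0.0326 and NDUFB1 -0.0497 for Gapdh shRNA. UQCRC2 became 0.00351 for CD86 shRNA with Vec and Gapdh shRNA pooled. With 1 library per combination, the counts depend on which lines enter. The lowest read number of a subunit was 73, for NDUFB8, and counting error at such depth was not modelled apart from the spread between libraries.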

Other observations

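The 6 tissue-restricted complex IV paralogs COX4I2, COX6A2, COX6B2, COX7A1, COX7B2 and COX8C were at most 1.00 FPKM in any library and 0 of them entered the tests, with COX6A2 listed at 0 in all 16 libraries. CYC1, the complex III subunit outside the symbol rule, was higher in KMS18 than in RPMI8226 by 1.96 on the log2 scale (limma adjusted p = 2.13e-10). Of 18 ATP synthase genes 14 were higher and 1 lower in RPMI8226 than in MM.1s, with a median of 0.35, where 33.2% of all genes were higher and 35.9% lower. In the Mcl1 line 5 of the 18 were lower and 1 higher than in RPMI8226, and of 76 mitochondrial ribosomal protein genes 14 were higher and 7 lower, where 19.5% of all genes were higher and 14.9% lower.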
